A study of Homo sapiens with 8 samples.

Results

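PC9-BrM3 cells that carried a control hairpin and had been given puromycin and doxycycline were compared with untransduced PC9-BrM3 cells, using the 2 libraries titled shNTC and the 2 titled PC9-BrM3, 4 of the 8 libraries of the series. PC9 is an established human lung adenocarcinoma line driven by mutant EGFR, and PC9-BrM3 is a brain metastatic subline of it. The shNTC cells were PC9-BrM3 transduced by lentivirus with a doxycycline-inducible vector for a non-target hairpin, selected in puromycin for 5 days and then kept in doxycycline at 500 ng/mL for 48 h. The untransduced PC9-BrM3 cells received no vector, puromycin or doxycycline and were grown for 48 h. The other 4 libraries are the PC9 parental line, handled like untransduced PC9-BrM3, and PC9-BrM3 with an inducible hairpin against HSF1 (shHSF1), handled like shNTC. The headers of the count tables place all untransduced libraries on sequencing lane 7 and all transduced ones on lane 1. Vector, hairpin, puromycin, doxycycline and lane therefore cannot be told apart in any difference given here. Nothing in the labels tells if the 2 libraries of a group come from 2 cultures or 2 transductions, and p-values cover only the spread between the samples at hand, perhaps a technical one.

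A non-target hairpin enters the RNA interference pathway through Dicer and the Argonaute proteins but is designed to match no transcript, and so serves as the reference for a knockdown. Doxycycline, which switches the hairpin on, belongs to the tetracyclines, antibiotics that bind bacterial ribosomes and at higher doses also slow translation on mitochondrial ribosomes. Puromycin ends growing peptide chains early and kills cells that lack the vector's resistance gene. Cells picked by such a selection are a new population of the line, and sublines chosen for metastasis can hold cells in several states.

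Total counts were 52076511 and 39676578 in the PC9-BrM3 libraries and 47450446 and 36281879 in shNTC. Levels are given in CPM, that is, counts scaled to a common library size, and as normalized CPM once the trends on GC content and length are taken out. With 3 counts as the limit that a count of 0 leaves, the limit in 1 library was 0.0576 to 0.0827 CPM, for counting error only. The second PC9-BrM3 library stood apart, with 17.3% of its counts on the mitochondrial genome against 5.40% in the first and 1.85% and 3.81% in shNTC. Its pair differed by a chi-square of 301 per degree of freedom, against 24.2 for the shNTC pair. Epithelial markers were present at 6895 to 11815 summed CPM over 34 genes. Of 20 lung lineage markers, 7 had at most 3 counts in each of the 4 libraries, among them NKX2-1, SFTPC and SLC34A2. The others had more in at least 1 library, and the summed level of the list was 1885 to 2519 CPM. Of 19 immune and endothelial markers, 10 had no more than 3 counts per library, among them PTPRC, CD3E and KDR, and the summed level was 23.1 to 48.9 CPM. CDH5, the endothelial cadherin, was present at 32.7 and 26.6 normalized CPM in PC9-BrM3 and 40.8 and 34.2 in shNTC.

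Without a correction, the comparison followed the base composition of the transcripts (the plot by GC content). In 10 bins of equal gene number, the median log2 fold change of shNTC against PC9-BrM3 ran from -0.26 in the bin of lowest GC to 1.57 in the bin of highest GC, transcripts of at least 61.0% GC. HSF1, the heat shock transcription factor, is such a transcript (64.7% GC, chromosome 8 from 145515280 to 145538385 in GRCh37). Uncorrected, its log2 fold change was 1.75. Offsets for GC content and gene length, set per gene and library, brought the bin medians to between -0.04 and 0.02. With them HSF1 stood at 102 and 93.9 normalized CPM in PC9-BrM3 and at 91.2 and 95.2 in shNTC. Its log2 fold change was -0.08 ± 0.14 (SE, 2 libraries in each group, adjusted p = 0.743 by edgeR), and the groups overlapped. On 1 scale for the 8 libraries HSF1 averaged 104 normalized CPM in PC9 parental, 99.3 in PC9-BrM3, 94.6 in shNTC and 6.99 in shHSF1. All values below carry the offsets unless stated, and pairs of values are the first and second library of a group. The share of genes called still rose with GC, from 4.86% in the lowest bin to 24.5% in the highest, and the part of GC in those calls was not tested.

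**Figure D1:**
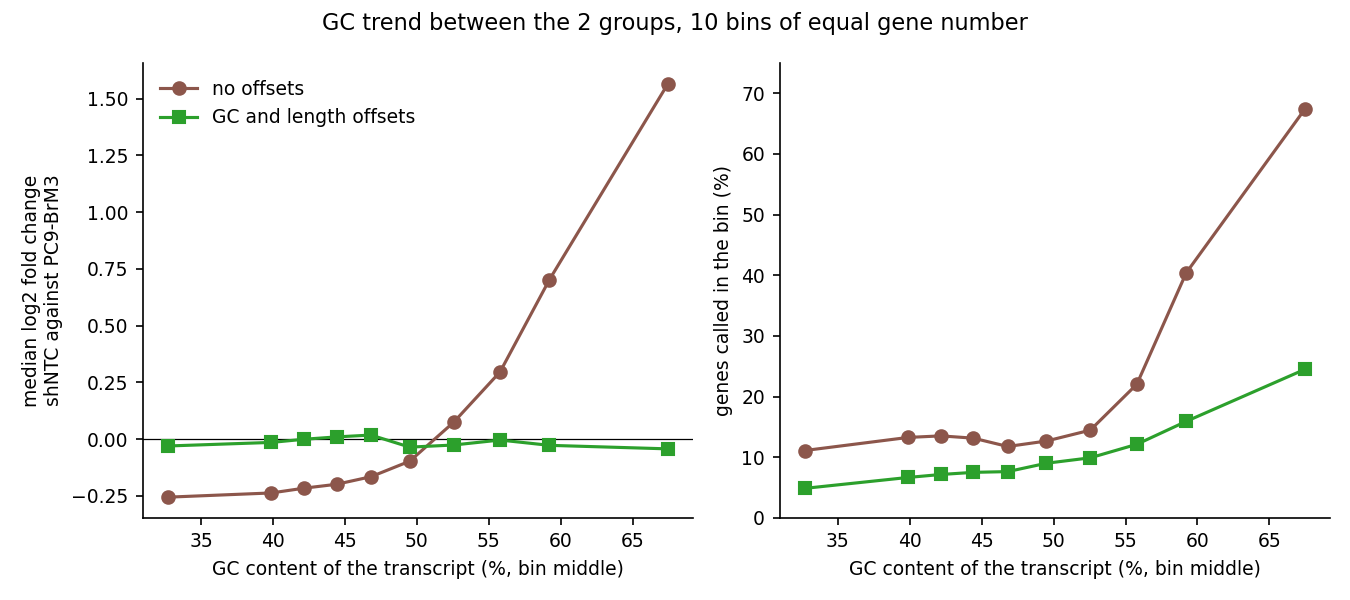
Median log2 fold change of shNTC against PC9-BrM3 (left) and percentage of genes called at an adjusted p under 0.05 (right) in 10 bins of transcript GC content, without offsets (circles) and with GC and length offsets (squares). The offsets flatten the medians, while the share called in the highest bin falls from 67.4% to 24.5%.

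With the control hairpin, 12 of 27 tested laminins, collagens and integrins rose, as did the metallothionein MT2A and the matrix gene FN1, and the mucin genes MUC6 and MUC1, the keratin KRT4, the transcription factor FOXI1 and the adhesion molecule L1CAM fell. The quasi-likelihood test of edgeR, with a threshold of 0.05 on the adjusted p, called 1753 of 16664 genes (10.5%). Of all genes tested, 987 (5.92%) rose and 766 (4.6%) fell. Of these, 740 higher and 558 lower genes differed at least 2-fold. Without offsets 3661 genes (22%) were called, 2577 higher (15.5%) and 1084 lower (6.51%), which moved the share of higher calls from 56.3% to 70.4%. Of the 1753 calls, 1408 were kept in the same direction without offsets and 132 changed sign. Leaving out the second PC9-BrM3 library raised the count to 6797, which held 1742 of the 1753 in the same direction, and leaving out the first raised it to 9065, holding 1739. Without the first or the second shNTC library the counts dropped to 241 and 293. Calls among the members of gene lists mostly moved with these totals over all genes. With 1 library left out, lists are therefore given below by their medians. In 62.3% of all genes tested, both libraries of 1 group lay above both of the other.

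The largest changes were taken among genes called with and without offsets, at 5 normalized CPM or more in 1 group and with groups not overlapping. The 12 largest rises were in COL8A1, EYA4, SLC25A5P3, MT2A, CYP51A1, SELENOH, SIVA1, CACNA2D1, CCDC85B, SCAND1, FN1 and ENPP1. The 14 other settings of the fit include the one without offsets, which all 12 passed by that choice. Of the 12, 11 passed the threshold in each of the 14, and CCDC85B did not. Its edgeR adjusted p was 0.462 without the first PC9-BrM3 library, 0.398 without the second and 0.0517 without the first shNTC library. COL8A1, which encodes a short-chain collagen of vessel and corneal membranes (chromosome 3 from 99357319 to 99518070), had 1 count over the 2 PC9-BrM3 libraries and 420 over shNTC. That is a ratio of 522 (95% counting interval 93.2 to 20674). COL8A1 passed the filter for low counts only through shNTC. FN1, the matrix glycoprotein fibronectin (chromosome 2 from 216225163 to 216300895), stood at 33.5 and 44.1 normalized CPM in PC9-BrM3 and 379 and 419 in shNTC. It rose 10.3-fold (log2 fold change 3.36 ± 0.20, SE; edgeR adjusted p = 0.00926). EYA4, a transcriptional coactivator and phosphatase of eye and ear development, stood at 0.190 and 0.250 in PC9-BrM3 and 7.84 and 12 in shNTC (log2 fold change 5.50 ± 0.38). CACNA2D1, an auxiliary subunit of voltage-gated calcium channels, stood at 0.578 and 1.12 against 9.47 and 10.3. ENPP1, an ectonucleotidase that hydrolyses extracellular nucleotides, stood at 0.895 and 1.42 against 11.3 and 12.1. In each of these 5 genes the lower shNTC library exceeded the higher PC9-BrM3 library several-fold, as choosing the largest rises without overlap favours.

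MT2A and CYP51A1 belong to a second kind of rise, in which both untransduced groups were low and both transduced groups high. MT2A, a metallothionein that binds zinc and copper (chromosome 16 from 56642111 to 56643409), stood at 1.15 and 1.37 normalized CPM in PC9-BrM3 and 34.9 and 36.7 in shNTC, a 28.6-fold rise (log2 fold change 4.84 ± 0.20, SE; edgeR adjusted p = 0.00926). CYP51A1, the lanosterol demethylase of cholesterol synthesis (chromosome 7 from 91741465 to 91772266), stood at 0.565 and 0.433 against 13.4 and 11.6, a 24.6-fold rise. On the scale of the 8 libraries, MT2A averaged 4.36 in PC9 parental and 46.7 in shHSF1, and CYP51A1 0.737 and 30.4. SELENOH, a small nuclear selenoprotein, averaged 1.65 in PC9 parental, 2.13 in PC9-BrM3, 37.0 in shNTC and 38.3 in shHSF1. SIVA1, a small protein of the apoptosis pathway, had 2.69, 3.34, 43.2 and 46.6 in the same order. SLC39A4, a zinc importer, had 3.85, 4.80, 39.2 and 51.1. SLC25A5P3 is a processed pseudogene of the adenine nucleotide carrier SLC25A5. Its reads, like those of metallothionein and ribosomal protein genes with near-identical copies, are uncertain.

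Metallothionein genes carry metal response elements before their start, to which the zinc sensor MTF1 binds. The promoters of MT2A and MT1X, the 2 metallothioneins that were called, are shown because both genes rose. They run from 250 bases before to 50 after the start in RefSeq (GRCh38.p14, plus strand, chr16:56608334-56608633 and chr16:56682220-56682519). Capitals mark matches on either strand to the element's core, searched as TGCGCNC and TGCACNC.
MT2A: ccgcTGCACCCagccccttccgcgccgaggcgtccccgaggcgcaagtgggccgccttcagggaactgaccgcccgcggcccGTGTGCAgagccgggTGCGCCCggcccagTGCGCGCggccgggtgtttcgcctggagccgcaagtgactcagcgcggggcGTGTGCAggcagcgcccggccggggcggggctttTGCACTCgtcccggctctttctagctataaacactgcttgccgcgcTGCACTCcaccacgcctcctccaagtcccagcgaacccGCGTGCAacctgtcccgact
MT1X: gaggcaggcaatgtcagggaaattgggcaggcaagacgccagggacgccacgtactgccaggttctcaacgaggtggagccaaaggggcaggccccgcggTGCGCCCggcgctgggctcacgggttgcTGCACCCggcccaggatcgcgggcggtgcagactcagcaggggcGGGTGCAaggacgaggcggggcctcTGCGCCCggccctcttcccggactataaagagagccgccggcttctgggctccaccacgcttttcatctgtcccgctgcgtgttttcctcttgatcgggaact
MT2A held 8 matches and MT1X 4. The last MT2A match lies in the 50 bases after the start. Of 35116 promoters of this length in the table, 29.6% held at least 1 match, 0.601% at least 4 and 0.0199% at least 8. MT1X stood at 0.570 and 0.98 normalized CPM in PC9-BrM3 and 2.25 and 2.42 in shNTC (log2 fold change 1.63 ± 0.36, SE; edgeR adjusted p = 0.0476). Its call was lost under upper-quartile scaling (adjusted p = 0.0503), and over all settings its adjusted p reached 0.266. MT1F, the other metallothionein tested, was not called (0.0649 and 0.196 against 0.508 and 0.251, edgeR adjusted p = 0.183). The list also holds MTF1 and the zinc transporters SLC30A1 and SLC39A10, none of them called, with log2 fold changes of -0.34, 0.30 and 0.32.

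The largest falls were in MUC6, KRT4, FOXI1, MUC1, S100A8, PPP1R1B, METTL7A, GGT6, GPRIN2, SUSD2 and PALMD, and in a pseudogene of 5.8S ribosomal RNA whose reads cannot be placed. Of these 12, chosen by the same rule as the rises, 9 passed in each other setting, and MUC6, PALMD and the pseudogene did not. MUC6, a secreted gel-forming mucin (chromosome 11 from 1012821 to 1036706), stood at 85.8 and 501 normalized CPM in PC9-BrM3 and 2.95 and 4.80 in shNTC. The PC9-BrM3 libraries differed from each other, and the fall, -6.25 ± 0.97 on the log2 scale (SE; edgeR adjusted p = 0.0222), lay between -7.05 and -4.48 over all settings with adjusted p up to 0.140. KRT4, a keratin of stratified mucosal epithelium, stood at 9.19 and 4.54 against 0.144 and 0.0236. It passed the filter for low counts only through PC9-BrM3, and its shNTC values are near the limit in 1 library. FOXI1, a forkhead factor that marks ionocytes of the airway and kidney, stood at 6.52 and 9.81 against 0.224 and 0.363, a 28-fold fall (edgeR adjusted p = 0.00926). MUC1, a membrane mucin of glandular epithelium (71.2% GC), stood at 119 and 187 against 5.22 and 6.40, a log2 fold change of -4.72 ± 0.29, or -1.94 without offsets. S100A8, a calcium-binding protein of neutrophils and inflamed epithelium, stood at 20.5 and 9.58 against 0.694 and 0.758. For all 5, the rule of choice required both shNTC libraries to be below both PC9-BrM3 libraries. GPRIN2 (63.7% GC) and SUSD2 (63.4% GC) had log2 fold changes of -3.53 and -3.51 with offsets and -1.94 and -1.95 without.

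The levels in PC9 parental, on the same lane as PC9-BrM3, separate the falls (the plot of levels in the 8 libraries). FOXI1 averaged 0.123 normalized CPM in PC9 parental, 8.31 in PC9-BrM3, 0.3 in shNTC and 0.0568 in shHSF1 on the scale of the 8 libraries, the PC9 parental libraries having 5 and 6 counts. MUC6 averaged 4.71, 294, 3.90 and 1.40 in the same order, METTL7A 2.04, 35.1, 2.42 and 0.415, and GGT6, a gamma-glutamyltransferase, 0.0659, 17.2, 1.31 and 0.386. For these, untransduced PC9-BrM3 was high and the other 3 groups low. ABCC4, an efflux pump for nucleotides and drugs, had 23.8, 215, 28.8 and 21. Some rises gave the mirror image. COL8A1 averaged 4.62 in PC9 parental, 0.00872 in PC9-BrM3, 5.57 in shNTC and 8.31 in shHSF1, and EYA4 14.7, 0.225, 10.1 and 16.2. Because PC9-BrM3 is a term of each such contrast, these levels are given side by side with no test of the pattern.

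**Figure D2:**
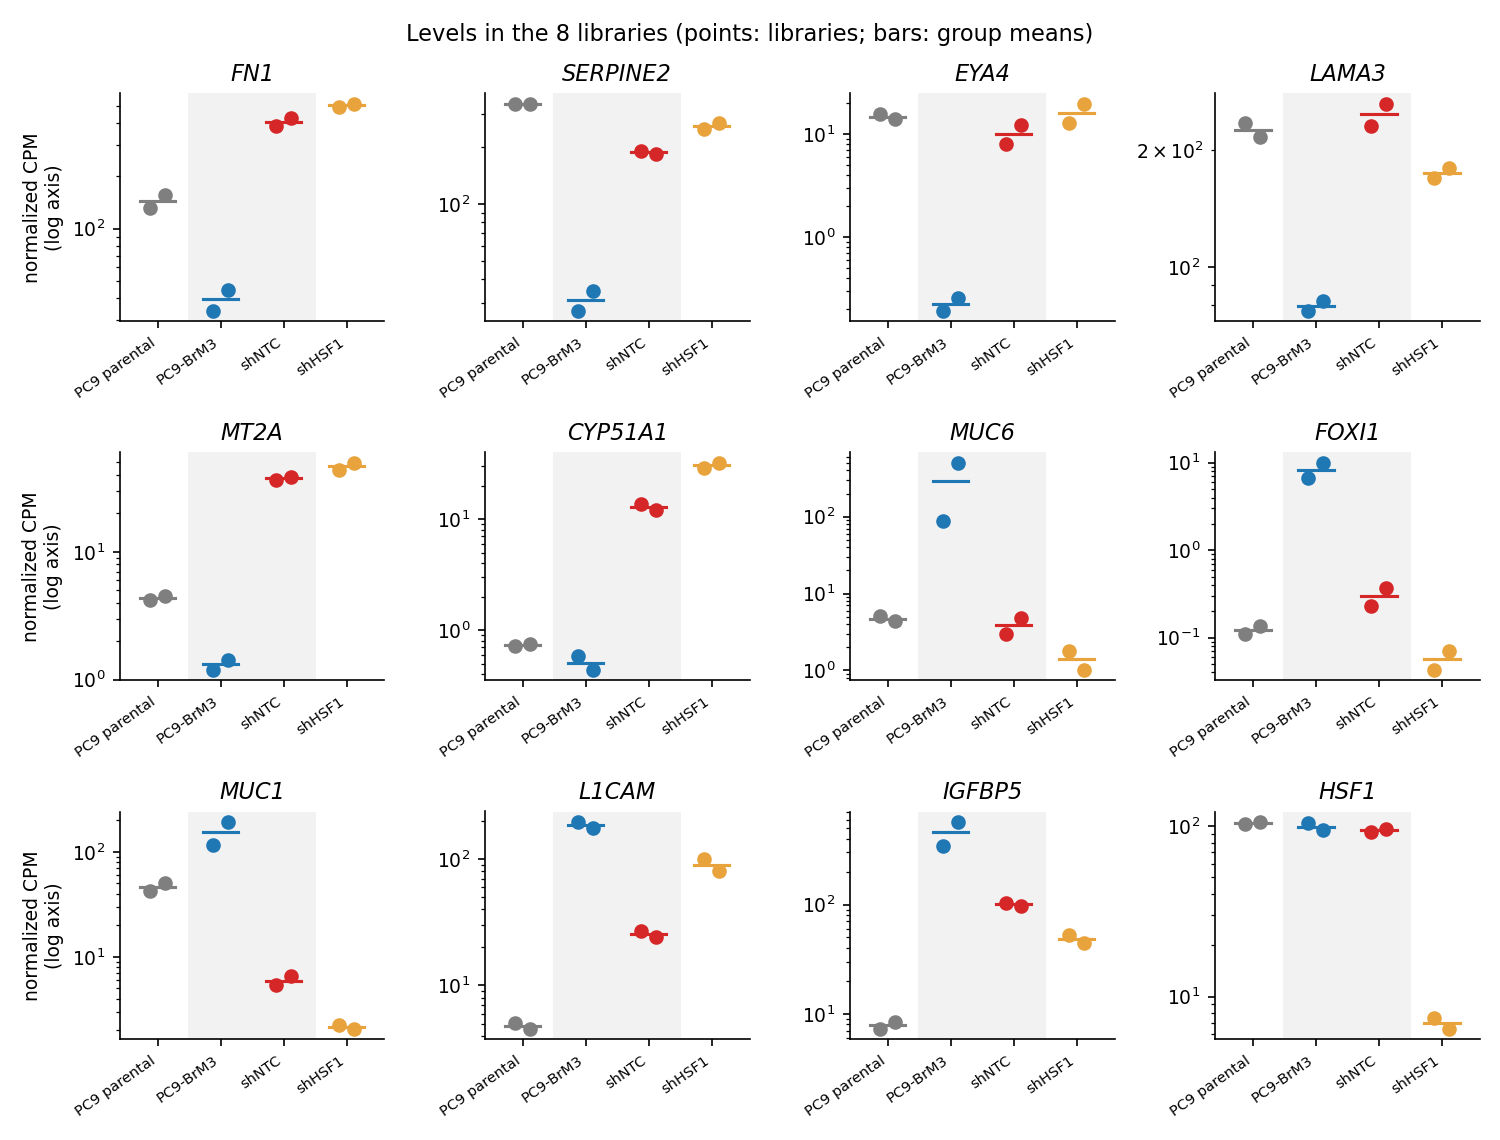
Normalized CPM (log axis) of 12 genes in the 8 libraries, on 1 scale. Points are libraries, bars group means, and the shaded band holds the 2 groups compared. MT2A and CYP51A1 are low in both untransduced groups, whereas FN1, SERPINE2, EYA4, LAMA3, MUC6 and FOXI1 show untransduced PC9-BrM3 apart from PC9 parental, and HSF1 is low in shHSF1.

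Laminins, collagens and integrins, which build the basement membrane and anchor cells to it, held the largest number of rises among the gene groups listed by role. Of 27 tested members, 12 rose and none fell, each of the 12 also without offsets. Over all genes tested, 5.92% rose and 4.6% fell. The median log2 fold change was 0.51. LAMA3, a laminin chain of epithelial basement membrane, stood at 76.2 and 80.8 normalized CPM in PC9-BrM3 and 227 and 259 in shNTC (log2 fold change 1.63 ± 0.15, SE; edgeR adjusted p = 0.0094). LAMB3, a further laminin chain of the same membranes, stood at 93.7 and 71.7 against 236 and 241. COL17A1, the transmembrane collagen of hemidesmosomes, stood at 2.61 and 2.91 against 9.96 and 9.89, and ITGB4, the integrin chain that binds laminin there, at 41.9 and 49.7 against 93.3 and 103. LAMA5, a chain of the laminins of mature basement membrane (66.4% GC), had a log2 fold change of 1.6 with offsets and 3.56 without, and COL4A5, a network collagen, 1.71 and 1.62. ITGA1, the collagen-binding integrin chain, rose by 1.6 ± 0.18. COL17A1, ITGB4 and ITGA1 were named after their values were seen. With 1 library left out the median of the list lay between 0.50 and 0.56. Fewer members were called without a shNTC library, and without a PC9-BrM3 library some were called lower.

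The mesenchymal list holds 18 tested members, of which 9 rose and 1 fell, with a median log2 fold change of 1.04. One of them, ITGA5, is also among the integrins. For this list and the TGF-beta list below, the shares over all genes tested were 5.92% higher and 4.6% lower. Beside FN1, VIM, an intermediate filament protein, rose from 5.16 and 6.17 to 27.4 and 21.4 normalized CPM (log2 fold change 2.11 ± 0.22, SE; edgeR adjusted p = 0.012), and COL6A3, a chain of collagen VI, by 1.81 ± 0.20. SPARC, a secreted collagen-binding protein, fell from 2.74 and 3.18 to 0.129 and 0.227. Of 29 matched members, 11 had at most 3 counts in each of the 4 libraries. Among them were CDH2, TWIST2 and the fibroblast genes COL1A2, COL3A1, DCN, LUM and PDGFRB. The summed level of the list, on the normalized scale of the 8 libraries, was 452 and 489 CPM in PC9-BrM3 and 1230 and 1245 in shNTC, against 382 and 321 and 1683 and 1656 CPM without offsets. With 1 library left out the median of the list lay between 0.88 and 1.29, and without a shNTC library fewer members were called. Of 20 tested TGF-beta target genes, 5 rose and 2 fell, and 1 of the falls, PDGFB, changed sign without offsets (log2 fold change -0.80 with them and 0.21 without). ID1, an inhibitor of basic helix-loop-helix factors, rose from 2.43 and 3.23 to 12.4 and 11.7, and TGFBI, a matrix protein, from 111 and 111 to 249 and 230. The median of the TGF-beta list was -0.02, and between -0.16 and 0.30 with 1 library left out. Fewer of its members were called without a shNTC library.

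Receptors of the EGFR family and their ligands went both ways, with 4 of 16 tested members higher and 3 lower. All 7 were called in the same direction without offsets. Over all genes tested, 5.92% were higher and 4.6% lower. The median log2 fold change of the list was 0.07, and between -0.08 and 0.05 with 1 library left out. Without a shNTC library fewer members were called, and no rise was kept. HBEGF, a ligand of EGFR and ERBB4, stood at 12.9 and 15 normalized CPM in PC9-BrM3 and 29.7 and 33.1 in shNTC (log2 fold change 1.17 ± 0.17, SE; edgeR adjusted p = 0.0192). EGF itself fell from 23.5 and 18.5 to 10.4 and 9.11, and ERBB3, the kinase-impaired partner receptor, from 171 and 200 to 103 and 106. LRIG1, which lowers EGFR levels at the membrane, fell from 3.44 and 3.83 to 0.491 and 0.220. AREG, another EGFR ligand, had 0 counts in both PC9-BrM3 libraries and 13 and 19 in shNTC, and was at least 11.8-fold higher (3 counts over the group taken as the limit). Receptor ERBB4 had 0 counts against 11 and 9, at least 8.50-fold higher, and its ligand NRG1 had 1 and 3 counts against 23 and 22. These 3 low genes make up 3 of the 4 rises, passed the filter for low counts only through shNTC and were named after their values were seen. HBEGF was the rise measured well above the limit in both groups.

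**Figure D3:**
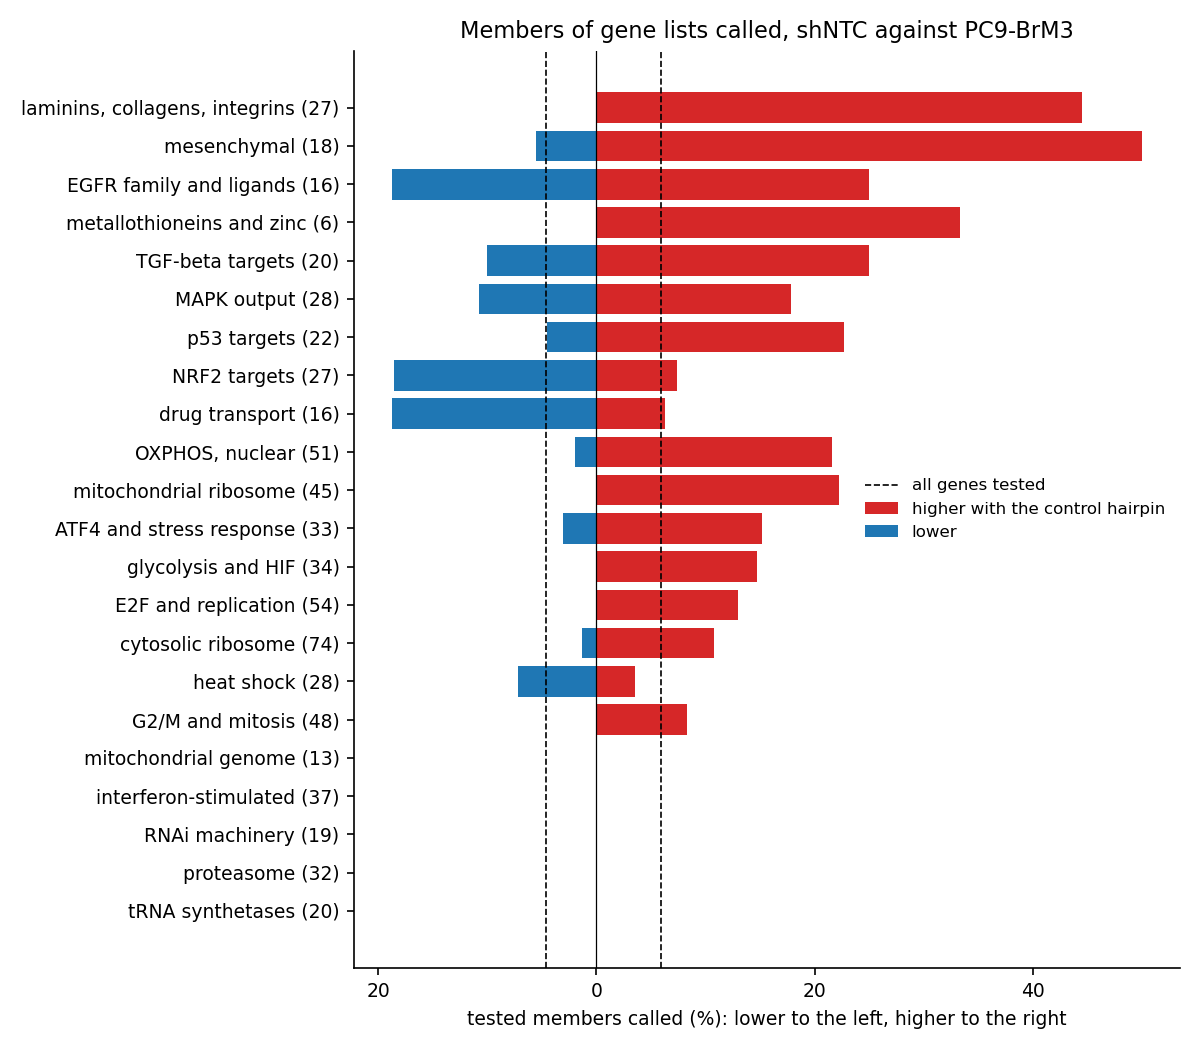
Percentage of the tested members of 22 gene lists called higher (right) or lower (left) with the control hairpin, with the number of tested members in brackets and dashed lines at the shares over all genes tested, 5.92% and 4.6%. The longest bars are those of the mesenchymal list (9 of 18 higher) and of laminins, collagens and integrins (12 of 27), and 5 lists have no call.

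Genes of the mitochondria are encoded in both the mitochondrial and the nuclear genome (the plot of mitochondrial and ribosomal genes). All 13 protein genes of the mitochondrial genome had negative log2 fold changes, from -2.54 to -1.08 with a median of -2.04, and none passed edgeR's quasi-likelihood test. At an unadjusted p under 0.05, 9 of 13 were lower, and DESeq2 called 0. Leaving out the second PC9-BrM3 library, the one with 17.3% of its counts there, moved the median to -0.59. MT-CO1, a subunit of cytochrome oxidase, stood at 5029 and 17154 normalized CPM in PC9-BrM3 and 1858 and 4286 in shNTC. For MT-ATP8 the sign turned, to a log2 fold change of 0.15 without that library. Of 51 tested nuclear genes of oxidative phosphorylation, 11 rose and 1 fell (median 0.49), and 10 of the rises were also called without offsets. NDUFS7, a core subunit of complex I (60.8% GC), stood at 2.25 and 1.95 against 18 and 17.6. Of 45 genes of the mitochondrial ribosome 10 rose and none fell (median 0.30), MRPS12 by 2.04 ± 0.29 (SE; edgeR adjusted p = 0.0192) and MRPL15 by 1.13 ± 0.14. Of these 10 rises, 8 were also called without offsets. Of 27 mitochondrial stress genes 1 rose (3.70%). The shares over all genes tested were 5.92% higher and 4.6% lower. With 1 library left out, the median of the oxidative phosphorylation genes lay between 0.19 and 0.75. That of the mitochondrial ribosome lay between 0.27 and 0.32. Without a PC9-BrM3 library some members of both lists were called lower, and without a shNTC library fewer were called.

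**Figure D4:**
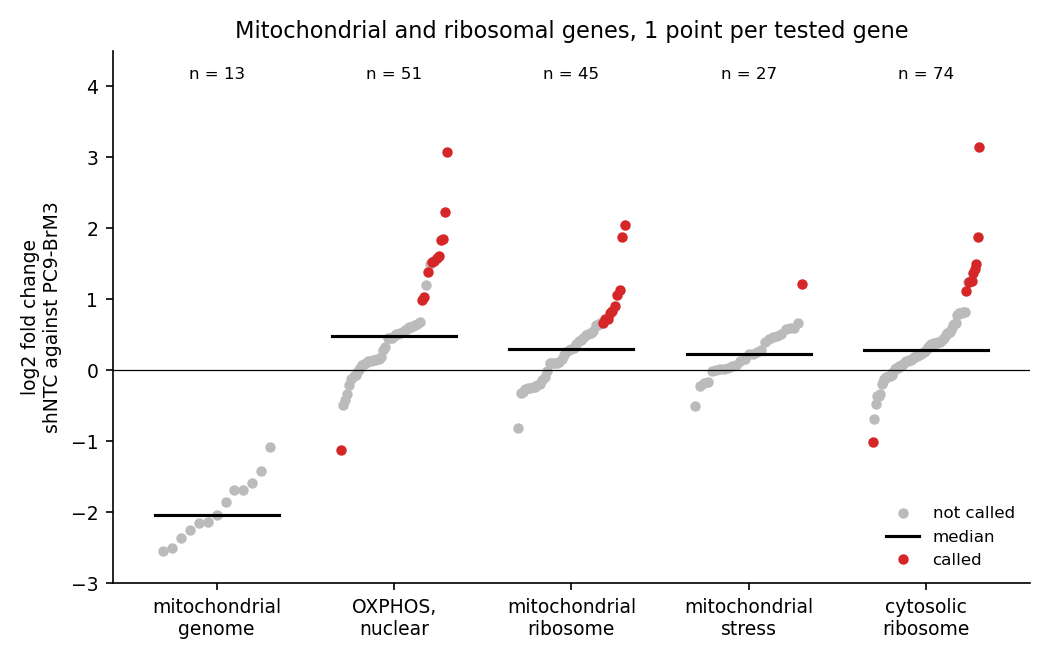
Log2 fold change of shNTC against PC9-BrM3 for each tested gene of 5 lists, with genes called at an adjusted p under 0.05 in red and list medians as bars. The 13 genes of the mitochondrial genome all lie below 0 with none called, while the medians of the 4 nuclear lists lie between 0.22 and 0.49.

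Several lists had no call. None of 37 tested interferon-stimulated genes and none of 19 genes of the RNA interference machinery were called by edgeR, with medians of 0.09 and 0.13. At an unadjusted p under 0.05 the interferon list had 7 higher and 5 lower members, and the RNA interference list 2 and 2. DESeq2 called 2 interferon genes higher and 3 lower, and 1 RNA interference gene higher. None of 32 proteasome genes and none of 20 tRNA synthetase genes were called by edgeR, with 6 and 2 higher and 0 and 1 lower at an unadjusted p under 0.05. For the proteasome DESeq2 called 3 higher, and for the synthetases 1 higher and 1 lower. With 1 library left out, the median of the interferon list lay between -0.01 and 0.23. That of the RNA interference list lay between 0.10 and 0.15. The proteasome median, 0.20 in the main fit, lay between 0.07 and 0.36, and that of the synthetases, 0.19, between 0.11 and 0.23. Without a PC9-BrM3 library edgeR called members of each of these lists in both directions, as it did over all genes. Of 18 antigen presentation genes 2 rose, and of 21 NF-kappaB targets 2 rose and 2 fell, beside 5.92% higher and 4.6% lower over all genes tested. Of the 2 NF-kappaB falls, 1 was also called lower without offsets. With 2 libraries per group a missed threshold does not show that these genes were alike.

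Targets of p53, which stops the cell cycle after damage, had 5 higher and 1 lower of 22 tested, a median log2 fold change of 0.33. CDKN1A, the cyclin-dependent kinase inhibitor p21, rose from 3.77 and 3.53 to 10.3 and 8.06 normalized CPM, and AEN, an apoptosis-linked nuclease, from 9.80 and 6.97 to 27.2 and 23.1. TP53INP1 fell from 6.79 and 5.61 to 1.25 and 1.82. Of 33 genes of ATF4 and the integrated stress response, 5 rose and 1 fell, the fall of CEBPB being present with offsets (-2.09) and not without (0.09). STC2, a secreted glycoprotein, rose from 154 and 184 to 516 and 485, and SLC7A11, the cystine transporter, from 158 and 114 to 362 and 337. NRF2 targets, which handle oxidants, had 2 higher and 5 lower of 27. Of these, 2 rises and 3 falls were also called in the same direction without offsets. The NRF2 rises include SLC7A11, and GDF15 counts as a rise in both the p53 and the ATF4 list. SLC48A1, a heme transporter, fell from 78.5 and 91.6 to 22.1 and 23.1. GSTM3, a glutathione transferase listed with drug transport, fell from 401 and 257 to 114 and 110. Heat shock genes had 1 higher and 2 lower of 28, near the shares over all genes tested, 5.92% higher and 4.6% lower. HSPB8, a small heat shock protein, was among the falls, from 22.4 and 27.2 to 8.92 and 8.89. With 1 library left out, the median of the p53 list lay between 0.21 and 0.43. That of the ATF4 list was 0.30 in the main fit and then lay between 0.21 and 0.50. For the NRF2 list the median was 0.14 and then between -0.07 and 0.24. For the heat shock list it was -0.10 and then between -0.26 and 0.11. Without a shNTC library fewer members of each list were called.

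Cell cycle and growth lists had rises near or above the share of all genes, 5.92%. Of 54 replication and E2F target genes 7 rose and none fell (median 0.34), PCNA, the replication clamp, from 150 and 127 to 256 and 257 normalized CPM. Of 48 mitosis genes 4 rose and none fell (median 0.05), BIRC5, survivin, from 50.8 and 46.4 to 112 and 99.9. Of 34 glycolysis and hypoxia genes 5 rose and none fell, ALDOA, aldolase, from 841 and 664 to 1856 and 1848. Of 74 cytosolic ribosomal protein genes 8 rose and 1 fell. RPLP1, a stalk protein of the large subunit, stood at 85.4 and 38.3 in PC9-BrM3 and 536 and 558 in shNTC, and RPL27A at 119 and 112 against 327 and 322. With 1 library left out, the median of the replication genes lay between 0.35 and 0.45. That of the mitosis genes lay between -0.07 and 0.15, and that of glycolysis and hypoxia genes between 0.32 and 0.37. The median of ribosomal protein genes, 0.28 in the main fit, lay between 0.02 and 0.75. Fewer members of each list were called without a shNTC library. Some of each were called lower without the first PC9-BrM3 library.

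The pair shHSF1 and PC9 parental also sets lane 1 against lane 7 and shares no library with the comparison above, but differs in having the HSF1 hairpin and the parental line. There 11062 of 17064 genes tested (64.8%) were called, 32.3% higher and 32.6% lower, and 70.4% without offsets, 35.6% higher and 34.8% lower. Of the genes tested in both, 980 rose with the control hairpin and 747 of these (76.2%) also rose in the second pair, which is 14.2% of the second pair's rises. Of 731 falls, 477 (65.3%) fell in both, 8.90% of the second pair's falls, and 226 calls were opposite. Over all genes tested in both, 32.3% rose and 32.9% fell in the second pair. Across 16287 genes, which are not independent, Pearson's r of the 2 log2 fold changes was 0.41, and 0.62 without offsets.

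Beside the rises with MT2A and CYP51A1, genes that fell in both pairs included MUC1, S100A8, PALMD, ADCY5, KLHDC7A, IL17RE, CASP14 and NRARP. ADCY5, an adenylyl cyclase, averaged 26.2 normalized CPM in PC9 parental, 93.6 in PC9-BrM3, 14.3 in shNTC and 3.29 in shHSF1 on the scale of the 8 libraries. CASP14, a caspase of cornified epithelium, had 659, 3263, 529 and 85.4, with its PC9-BrM3 libraries at 1929.7 and 4597. NRARP, a NOTCH feedback inhibitor (67.3% GC), had a log2 fold change of -2.59 with offsets and -0.29 without, at which it was not called. MUC1 averaged 46.7, 156, 5.92 and 2.16, lower in both transduced groups than in both untransduced ones.

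**Figure D5:**
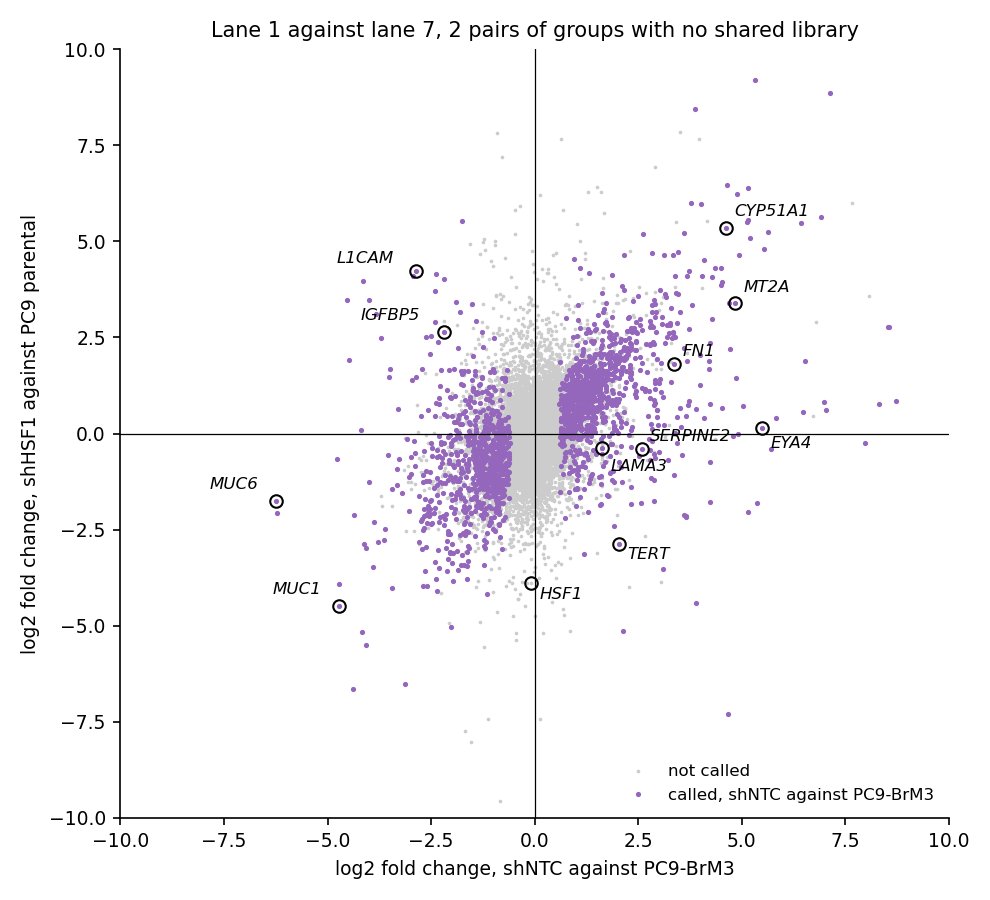
Log2 fold change of shNTC against PC9-BrM3 (x axis) and of shHSF1 against PC9 parental (y axis) for genes tested in both, with the calls of the first in purple and 12 named genes ringed. Of 980 rises 747 also rose and of 731 falls 477 also fell in the second pair, while L1CAM and IGFBP5 lie opposite.

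The test of the difference between the 2 pairs, over all 8 libraries, called 3967 of 17633 genes (22.5%), 11.8% positive and 10.7% negative, and without offsets 22.4%, 12.1% positive and 10.3% negative. Of the 1753 genes called with the control hairpin, 291 of the rises and 311 of the falls passed it with a difference of the same sign, 143 passed it the other way and 1008 did not pass. The same quantity equals the difference of shNTC from shHSF1, both on lane 1, less that of PC9-BrM3 from PC9 parental, both on lane 7, so a gene can pass through the HSF1 hairpin or through the parental line. L1CAM, a neural adhesion molecule tied to brain metastasis, averaged 4.78 normalized CPM in PC9 parental, 186 in PC9-BrM3, 25.5 in shNTC and 90.2 in shHSF1. It fell 7.31-fold with the control hairpin (log2 fold change -2.87 ± 0.16, SE; edgeR adjusted p = 0.00926), from 195 and 175 to 26.7 and 24.0 normalized CPM. IGFBP5, a binding protein for insulin-like growth factors, averaged 7.84, 459, 101 and 48.8 in the same order, and KRT23, a simple-type keratin, 48.2, 318, 117 and 85.2. SERPINE2, a protease inhibitor, went the other way at 339, 31.1, 187 and 259, and PDE2A, a cyclic nucleotide phosphodiesterase, at 180, 44.9, 117 and 87.4. LIFR, the receptor of leukemia inhibitory factor, averaged 64.8 in PC9 parental, 2.52 in PC9-BrM3, 5.81 in shNTC and 7.39 in shHSF1. TERT, the catalytic subunit of telomerase, had 77.3, 5.15, 21.2 and 10.6. In each of these 7 genes shNTC lay between PC9-BrM3 and PC9 parental. The tests by which they were chosen contain these groups and favour such an order, and the pattern was not tested.

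Neither ABL kinase, genes the series also follows, was called with offsets. ABL1 stood at 73.6 and 62.4 normalized CPM in PC9-BrM3 and 73.5 and 68.3 in shNTC (log2 fold change 0.06 ± 0.15, SE; edgeR adjusted p = 0.825), and ABL2 at 58.8 and 47.6 against 85.7 and 77.1 (0.61 ± 0.17; edgeR adjusted p = 0.0803). The shNTC libraries of ABL2 lay above both PC9-BrM3 libraries, while those of ABL1 overlapped with them. Without offsets ABL1 was called higher (0.87, edgeR adjusted p = 0.0147). ABL2 was called higher in 6 of the 14 other settings, with edgeR adjusted p from 2.47e-05 without the first PC9-BrM3 library to 0.612 without the first shNTC library. AXL, a receptor tyrosine kinase, rose 3.16-fold, from 71.9 and 64.0 to 232 and 197.

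Along the genome, the median log2 fold change in 155 bins of 20 Mb with at least 20 tested genes lay between -0.30 and 0.63, and 4 bins were past 0.3. These were the bins from 140 Mb of chromosome 9 (26 genes, median 0.63), 80 Mb of chromosome 17 (25 genes, 0.40) and 60 Mb of chromosome 20 (51 genes, 0.35), and from 180 Mb of chromosome 4 (37 genes, -0.30). Without offsets the first 3 were at 2.20, 0.73 and 1.33. Their medians in the second pair were 0.33, 0.44 and 0.32, and that of the chromosome 4 bin -0.01. Without the second PC9-BrM3 library the chromosome 4 bin was at -0.14, and without the second shNTC library the chromosome 17 bin was at 0.17.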

How the data were processed

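RNA-seq counts of 4 libraries, 2 per group by their titles, were compared, and 4 further libraries of the series gave a second pair of groups. The authors deposited unnormalized counts of reads for each gene, made with featureCounts 1.6.1, which summed exons under their Ensembl ID (GRCh37) in reverse-stranded mode, per the file headers. The submitters' processing notes list Trim Galore, HISAT2, featureCounts and DESeq2 without versions. The headers also name the lanes. Counting by strand separates genes on opposite strands, while reads of near-identical copies may be lost.

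Symbols were found for 52526 of 63677 gene IDs (82.5%), and GC content, from the longest GENCODE v29 transcript, for 52524. Low genes were dropped with filterByExpr at a count of 10 and a total of 15. The robust quasi-likelihood F test of edgeR 4.0.16, run in R 4.3.3, was used with Benjamini-Hochberg adjustment over all genes tested, threshold 0.05. Smooth trends of each library on GC content and log2 length (mgcv 1.9.3, basis dimension 8, genes of at least 1 CPM) entered as offsets, and genes without a GC value were left out. TMM factors were computed after the trend was taken out. This order was chosen after seeing that the other left the median log2 fold change at 0.15, and the other order is an alternative. Normalized CPM are counts over the fitted offsets. Standard errors come from the log2 fold change and its F. The calculation was tested on simulated data.

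Total counts ran from 36281879 to 52076511 over the 4 libraries. Replicate numbers did not pair the libraries (correlation of same-numbered deviations -0.056 over 10802 genes). Alternatives were no offsets, GC alone, other scaling factors, DESeq2 1.42.0, no count filter, all 8 libraries in 1 fit, no mitochondrial genes, a replicate block, and each library left out.

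The comparison and the 44 gene lists were chosen with earlier results of these data known. Named genes followed a rule: HSF1, ABL1 and ABL2; the 12 largest rises and falls called with and without offsets, at 5 normalized CPM in 1 group and not overlapping; up to 4 called members of each list by smallest p, and all genes of the mitochondrial genome; up to 8 genes per direction called in both pairs, by the smaller change; and up to 5 per direction past the test of the difference, by smallest p. AREG, NRG1, ERBB4, COL17A1, ITGB4, ITGA1, PDGFB, CDH5, MT1F, MTF1, SLC30A1 and SLC39A10 were named after their values were seen. Some genes that the rule names are not reported here. RefSeq promoters matched both metallothioneins sought.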

Additional observations from a re-analysis of the deposited data

Results flagged for a closer look

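In 9 genes the 2 lane 1 against lane 7 differences, shNTC against PC9-BrM3 and shHSF1 against PC9 parental, differed by edgeR's quasi-likelihood test of that difference. They are among the 5 per direction with the smallest p among genes called with the control hairpin. The log2 difference between the 2 contrasts was 4.33 for LIFR, 4.9 for TERT, 2.42 for PDE2A and 2.98 for SERPINE2. It was -7.11 for L1CAM, -4.82 for IGFBP5, -2.27 for KRT23, -3.48 for HSPB8 and -4.34 for GLP2R, the receptor of glucagon-like peptide 2. Adjusted p for the 9 lay between 6.52e-06 for L1CAM and 0.000113. HSPB8 averaged 3.50 normalized CPM in PC9 parental, 25.2 in PC9-BrM3, 9.15 in shNTC and 14.2 in shHSF1, and GLP2R 2.58, 27.5, 10.3 and 19.5. With 2 libraries per group no library could be examined as an outlier within its group.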

How the results depend on the processing

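The counts depended on which libraries set the spread. With 1 library left out, genes called higher with the control hairpin ran from 163 to 4518 and genes called lower from 78 to 4547. The lone library is then taken to vary like the other group, and the PC9-BrM3 pair is the wider one (SD of log2 deviations 0.242 against 0.0745 in shNTC). Genes called higher in both pairs ran from 130 to 2324 and lower from 44 to 2062. Genes past the test of the difference ran from 978 to 4675 higher and from 892 to 4067 lower. Higher calls were 2577 without offsets, 2076 without a count filter, 2464 with all 8 libraries in 1 fit and 1526 with TMM factors before the trend, the last chosen after seeing the data. Lower calls were 1990 without a count filter, 1301 by DESeq2 and 2175 with all 8 libraries. TMM factors before the trend moved the share of higher calls to 72.7%. Genes higher in both pairs were 2241 without offsets and 1430 without a count filter, and lower in both 1099 without a count filter. The counts of the second pair stayed within 1.5 times in every setting run.

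Of 159 named genes that were called, 51 passed in all 14 settings and 129 in all but those that leave out a shNTC library. Signs changed without offsets, to 0.0912 for CEBPB, 0.52 for BCL3, 0.88 for JUND and 0.0128 for MAFF. They also changed to 0.35 for FJX1, 0.16 for TM7SF2 and 1.17 for MMP15. All of these genes were lower with offsets. PDGFB, which is not counted among the 159, also changed sign without offsets, as given above. HSF1, not called, was at 1.75 without offsets and 0.093 with TMM factors before the trend. ABL1 lay between -0.051 and 0.18, and MT-ATP8 between -2.09 and 0.15, with 1 library left out, and ABL1 was at 0.87 without offsets.

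With a replicate block 1276 genes were higher and 1047 lower, and 1689 of the 1753 calls were kept. The numbers did not pair the libraries, so this fit is given for completeness.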
